A study of Mus musculus with 17 samples.

Results

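The suppressors of cytokine signalling (SOCS) were followed in poly-A RNA-seq of mouse macrophages. The family was taken as Cish, Socs1, Socs2, Socs3, Socs4, Socs5, Socs6 and Socs7, and each of these 8 symbols matched 1 of the 24453 gene models of the deposited expression table. The study asked how single AP-1 monomers (ATF3, JUN and JUND) act in macrophages and how the cells respond to a TLR4 agonist. The 13 libraries with values came from immortalized bone marrow-derived macrophages (iBMDMs, 8 libraries) and from thioglycollate elicited peritoneal macrophages (TGEMs, 5 libraries). A further 4 nascent RNA (GRO-seq) samples were not analysed here.

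All iBMDMs were on the C57Bl/6EiJ background, had been immortalized with a retrovirus carrying Myc and BRAF V600E, carried a Cas9-IRES-EGFP transgene, and received the vehicle only. They were infected with a lentivirus carrying a scrambled control (Scramble) or a pair of guides against Atf3 (Atf3KO), Jun (JunKO) or Jund (JunDKO), with 2 libraries in each group, and were sorted on the fluorescent marker of the guide virus. The groups were therefore sorted pools of a transformed line, and whether the 2 libraries of a group came from separate infections was not stated. The titles of the Scramble libraries name zsGreen, which no knockout title does. What zsGreen marked in these control cells was not stated. The TGEMs carried no engineered allele. They were male C57Bl/6EiJ cells given vehicle (PBS, 1 library) or Kdo2 lipid A (KLA, a TLR4 agonist) for 1 h (1 library), and male Balb/cJ cells given vehicle (1 library) or KLA for 1 h (2 libraries), all per the labels. Since nothing tied libraries to separate cultures or animals, the p-values below measure the spread between libraries only.

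Several libraries went against their labels or stood apart. Libraries held 1553296 to 18444429 reads, as recovered from the deposited values. Atf3 was not lower in the libraries labelled Atf3KO (154 and 169 RPKM, reads per kilobase of exon, scaled to library depth) than in Scramble (80.7 and 77.4 RPKM), Jun was not lower in JunKO (26.2 and 20.5 against 17.6 and 18.5 RPKM), and Jund was 6.94 and 6.07 RPKM in JunDKO against 9.19 and 8.33 RPKM. A small deletion need not lower an RNA, so these levels did not check the knockouts. The study tested them at the protein level by western blotting and reported that the blots bore out the knockouts. Protein was not analysed here, and the groups are named here by their labels. The libraries labelled Atf3KO detected 10425 and 10631 gene models, against 11884 to 12533 in the other iBMDM libraries. They held 4397162 and 7236839 reads, against 1553296 to 1929988 in the other iBMDM libraries except JunDKO replicate 2 (18444429). They thus detected fewer models than libraries with fewer reads. All samples were labelled male, but the 5 TGEM libraries expressed Xist at 19.2 to 28.1 RPKM and held Ddx3y at 0, and the 8 iBMDM libraries held Xist at no more than 0.029 RPKM and Ddx3y at 4.93 to 30.6 RPKM. Gapdh, a gene that every cell uses, was listed at 0 in 2 of the 13 libraries and at no more than 26.8 RPKM in any, so a value of or near 0 in this table need not mean that the RNA was low. All 8 macrophage markers were present in every group. TGEM libraries also held 4 of 4 B cell markers (summed 10.1 to 23.9 RPKM) and 5 of 6 mesothelial and fibroblast markers (36.9 to 77.3 RPKM) at a group mean of at least 1 RPKM, whereas their T cell, neutrophil, eosinophil and erythroid markers and all non-macrophage lists in iBMDMs had no gene at that level, 1 dendritic cell marker reached it under KLA, and mast cell markers reached it for 1 of 4 genes under vehicle and 3 of 4 under KLA.

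SOCS proteins are the feedback brakes of cytokine receptors that signal through Janus kinases (JAKs) and STAT transcription factors. Cytokine binding activates the JAKs, the STATs are phosphorylated and switch on target genes, and among these targets are Cish, Socs1, Socs2 and Socs3 themselves. The proteins share an SH2 domain, which binds phosphotyrosine, and a SOCS box, which recruits elongins B and C and a cullin to ubiquitinate bound proteins. SOCS1 and SOCS3 also inhibit JAK catalysis directly, SOCS3 being best known for limiting gp130 (IL-6 family) and G-CSF receptor signalling in macrophages and SOCS1 for limiting interferon signalling. CISH and SOCS2 act mainly on STAT5-activating receptors such as those for growth hormone and GM-CSF. SOCS4 to SOCS7 form a more divergent branch linked largely to receptor tyrosine kinases and insulin signalling.

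In the files' mm10 annotation, Socs3 lies at chr11:117966087-117969366 on the minus strand, Cish at chr9:107296689-107301961 (plus), Socs1 at chr16:10783809-10785536 (minus), Socs2 at chr10:95411490-95415283 (minus), Socs4 at chr14:47277143-47291591 (plus), Socs5 at chr17:87107679-87137588 (plus) and Socs7 at chr11:97362551-97398542 (plus). Values are over the exons of each gene, and no other model of the table overlaps a member.

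The family divided into transcripts present in every library and transcripts at the limit of detection. Socs4, Socs5, Socs6 and Socs7 each had more than 3 reads in 8 of 8 iBMDM and 5 of 5 TGEM libraries. Socs3 did so in 7 of 8 and 5 of 5. Cish had 1 read in all 8 iBMDM libraries together, Socs1 had 18 and Socs2 was listed at 0 in each. In the TGEMs, the same genes had 198 (Cish), 88 (Socs1) and 69 (Socs2) reads over 5 libraries.

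**Figure D1:**
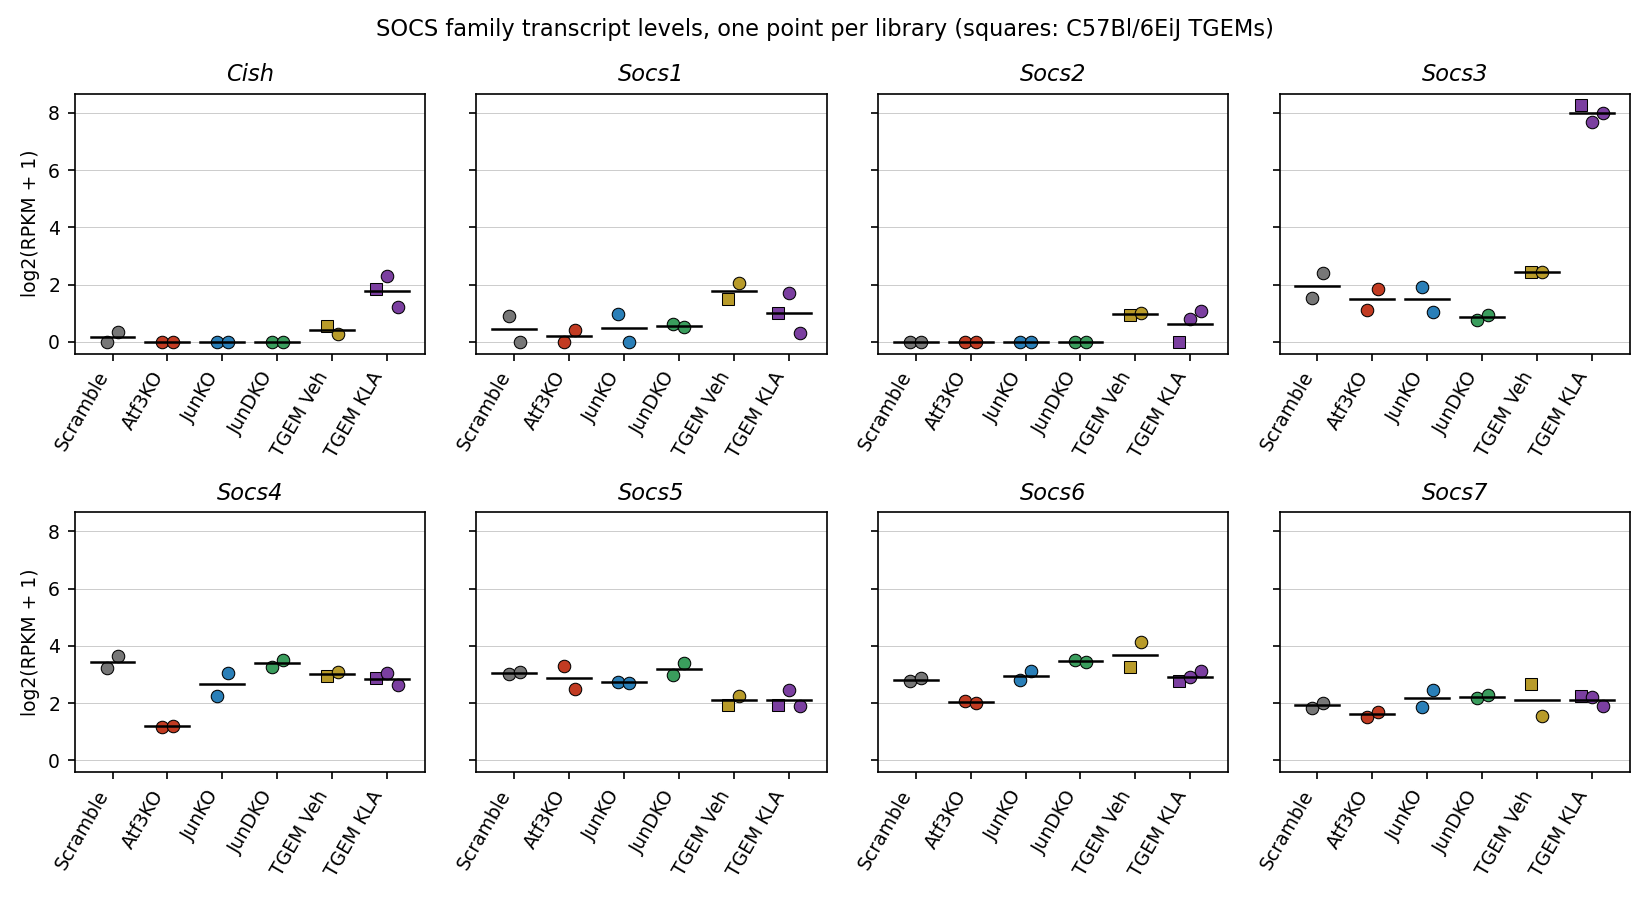
Level of each SOCS gene as log2(RPKM + 1) on the y axis, with one point per library, a line at the group mean, and the 4 iBMDM and 2 TGEM groups on the x axis (squares are C57Bl/6EiJ TGEMs). Socs3 in the 3 KLA libraries stands far above every other point (204.6 to 307.2 RPKM), and Socs4 is lowest in the 2 libraries labelled Atf3KO (1.27 and 1.28 RPKM).

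The order of the levels differed between the cell types. In Scramble iBMDMs, mean levels ran from Socs4 (10.1 ± 2.3 RPKM, SD, n = 2) through Socs5 (7.39 ± 0.274) and Socs6 (6.1 ± 0.396) to Socs3 (3.1 ± 1.69) and Socs7 (2.8 ± 0.293), and the ranges of neighbours overlapped only for Socs3 and Socs7 among these 5 genes. Their place among all models was middling, Socs4 lying above 78.0% of models. In vehicle TGEMs, Socs6 came first (12.6 ± 5.6 RPKM, n = 2), followed by Socs4 (7.18 ± 0.519), Socs3 (4.42 ± 0.0382), Socs7 (3.65 ± 2.4), Socs5 (3.31 ± 0.676) and Socs1 (2.48 ± 0.96). From Socs3 down to Socs1 each neighbour overlapped the next, and Socs2 (0.982 ± 0.07) and Cish (0.343 ± 0.205) lay below them.

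KLA treatment for 1 h raised Socs3. This gene, whose product binds gp130 and inhibits JAKs, measured 4.45 RPKM in the C57Bl/6EiJ and 4.40 RPKM in the Balb/cJ vehicle library. After KLA it measured 307.2 RPKM in the C57Bl/6EiJ library and 204.6 and 257.1 RPKM in the Balb/cJ libraries. The groups did not overlap, as for 23.7% of all models tested, and the lowest KLA library lay far above the higher vehicle library. In a limma-trend fit over all 5 libraries with strain as a covariate, Socs3 rose by 5.59 ± 0.27 (SE) on the log2(RPKM + 1) scale, a 48.2-fold rise on that scale, with an adjusted p of 1.96e-04. The fit had 2 residual degrees of freedom, so the spread was borrowed across genes. Of 10357 models tested, 158 passed at an adjusted p under 0.05, a background of 1.53%, and Socs3 ranked 11 by size of change. It also passed the study's stricter criteria (at least 2-fold, and 16 RPKM in either group), as did 117 models (1.13%).

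The rise was large in each strain. The C57Bl/6EiJ KLA library held 2719 Socs3 reads against 138 in its vehicle library of the same date, a ratio of depth-scaled reads of 69.1 with an exact 95% interval of 58.2 to 82.5. The Balb/cJ library of the vehicle's date gave a ratio of 46.5 (32.2 to 70.1). The other Balb/cJ library, of another date, gave 58.5 (40.4 to 88.2). These intervals cover counting error only. The difference in response between strains was -0.41 ± 0.55 (log2, Balb/cJ minus C57Bl/6EiJ, adjusted p = 0.892), with 1 residual degree of freedom and no gene passing across the 10357 (835 at an unadjusted p under 0.05, limma), so the design gives little hold on a strain difference.

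Most of the family's summed signal under KLA was Socs3. Its share of the summed RPKM of the 8 genes was 14.2% and 11.4% in the vehicle libraries and 93.2%, 87.6% and 92.5% in the KLA libraries. The sum of the other 7 genes was 26.8 and 34.2 RPKM under vehicle and 22.5, 28.9 and 21.0 RPKM under KLA, so these ranges overlapped. Under KLA, Socs3 had a mean of 256 ± 51.3 RPKM (n = 3) and ranked 175 of all models, and the next member, Socs6, had 6.67 ± 0.9 RPKM. In bulk RNA, a change in RNA per cell cannot be told apart from a change in the share of cells that carry it. The summed B cell markers were 10.1 to 14.5 RPKM under vehicle and 10.4 to 23.9 under KLA, and the mesothelial and fibroblast markers 54.6 to 77.3 and 36.9 to 66.0 RPKM. The summed mast cell markers were 1.78 to 6.56 RPKM under vehicle and 2.72 to 18.6 RPKM under KLA. The part of these cells in the Socs3 rise was not tested.

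**Figure D2:**
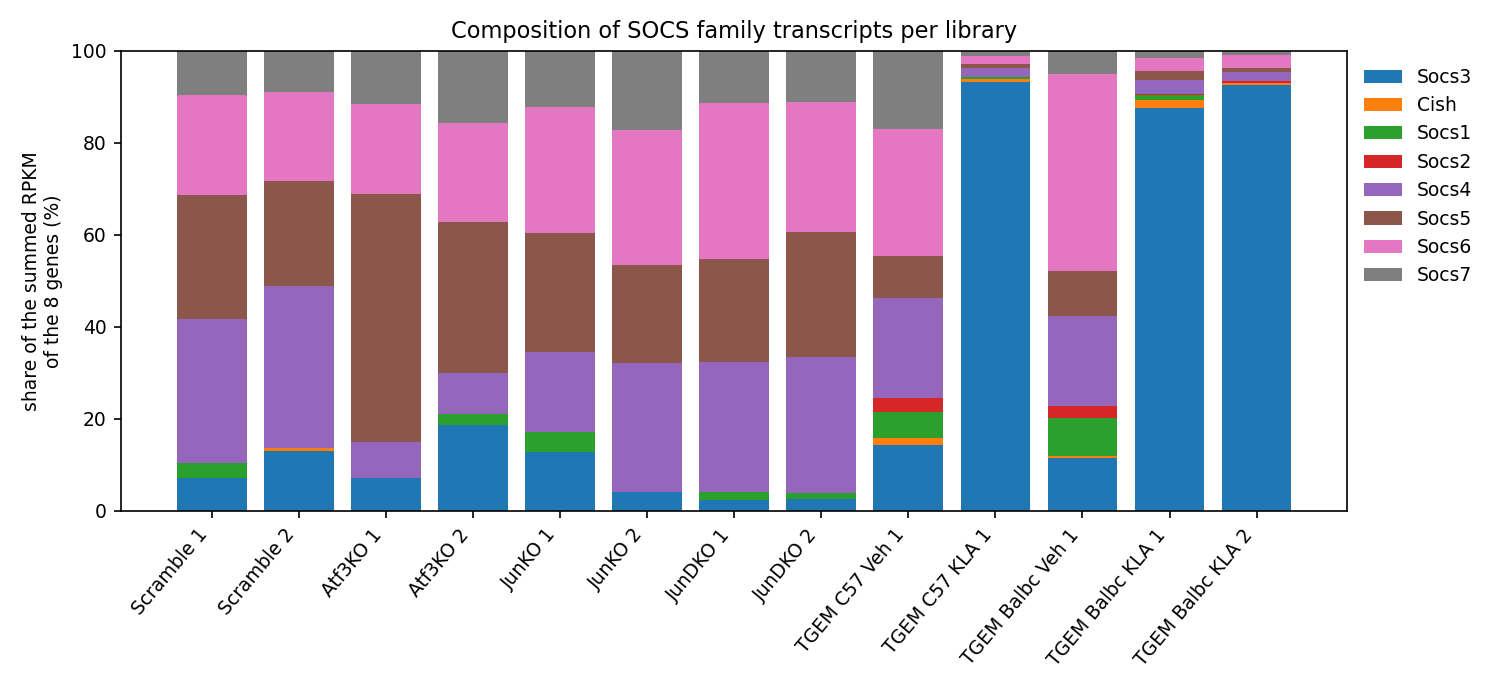
Stacked bars of the share (y axis, percent) that each SOCS gene took of the summed RPKM of the 8 genes, one bar per library on the x axis. Socs3 fills 87.6 to 93.2% of the 3 KLA bars and 2.3 to 18.6% of the other 10 bars.

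The start of Socs3 is shown beside that of Cish, the member with the next largest fitted difference above 0 under KLA, which did not pass. RefSeq promoter windows (GRCm38.p6) were matched for 4 of the 8 members (Cish, Socs1, Socs3 and Socs4). The 250 bases before the RefSeq start of Socs3 lie at chr11:117969367-117969616 on the minus strand, and those of Cish at chr9:107296409-107296658 on the plus strand. The RefSeq start of Cish (107296659) lies upstream of the start of its model in the expression table (107296689). Both are written 5′ to 3′ in the gene's direction, and capitals mark a match to the palindromic STAT-binding pattern TTCNNNGAA.
Socs3: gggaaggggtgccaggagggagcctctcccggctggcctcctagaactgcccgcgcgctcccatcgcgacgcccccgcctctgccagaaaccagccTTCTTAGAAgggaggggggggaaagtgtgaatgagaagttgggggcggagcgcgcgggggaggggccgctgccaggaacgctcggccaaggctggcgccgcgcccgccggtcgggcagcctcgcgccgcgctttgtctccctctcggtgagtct
Cish: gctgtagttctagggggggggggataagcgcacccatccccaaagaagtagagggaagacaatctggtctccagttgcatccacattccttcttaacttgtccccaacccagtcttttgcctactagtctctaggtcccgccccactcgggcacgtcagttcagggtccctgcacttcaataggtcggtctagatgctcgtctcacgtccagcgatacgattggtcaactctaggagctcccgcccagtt
The Socs3 match lies 154 to 146 bases before the start site, at 117969512 to 117969520 on chromosome 11. The windows of Cish, Socs1 and Socs4 held no such match, which says only that these letters are not in the windows. On both strands, 7.02% of the 32851 RefSeq promoter windows held the pattern. None of the 4 windows held the AP-1 pattern TGANTCA (6.75% of all windows), the CRE pattern TGACGTCA (1.55%) or the NF-kB consensus (7.25%). Binding was not measured, and a match is a description of the letters only.

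Cish, whose product damps STAT5-activating receptors, was low throughout and higher under KLA in every library. It measured 0.488 and 0.198 RPKM in the C57Bl/6EiJ and Balb/cJ vehicle libraries (12 and 1 reads). Under KLA it measured 2.57 RPKM in the C57Bl/6EiJ library (18 reads) and 3.98 and 1.34 RPKM in the Balb/cJ libraries (148 and 19 reads). The groups did not overlap, as for 23.7% of all models tested. The fitted difference was 1.40 ± 0.41 (log2, adjusted p = 0.200 by limma, unadjusted p = 0.00993 in the same fit), which did not pass. The C57Bl/6EiJ ratio was 5.26 (2.4 to 12), and the Balb/cJ ratios of 20.1 (3.55 to 799) and 6.76 (1.08 to 281) rest on a single vehicle read. Cish passed the filter of a mean of 1 RPKM only through its KLA libraries.

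Socs1, an inhibitor of JAK1, JAK2 and TYK2, did not follow Socs3. It measured 1.80 and 3.16 RPKM under vehicle (C57Bl/6EiJ and Balb/cJ) and 1.01, 2.29 and 0.25 RPKM under KLA (C57Bl/6EiJ, then Balb/cJ), so the groups overlapped. The fitted difference was -0.80 ± 0.46 (log2, interval -1.88 to 0.29, adjusted p = 0.449 by limma). These values rest on 2 to 48 reads a library. The interval excluded a rise of the size seen for Socs3. Socs2 measured 0.932 and 1.03 RPKM under vehicle and 0, 0.756 and 1.10 RPKM under KLA, on at most 27 reads, and was below the filter.

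The divergent branch did not pass the test after KLA. Socs6, which binds receptor tyrosine kinases and insulin receptor substrate complexes, measured 8.59 RPKM in the C57Bl/6EiJ and 16.5 RPKM in the Balb/cJ vehicle library and 5.85, 6.53 and 7.63 RPKM under KLA. All 3 KLA libraries lay below both vehicle libraries, and groups did not overlap for 23.7% of all models tested. The fitted difference was -0.85 ± 0.26 (log2, adjusted p = 0.218, unadjusted p = 0.0128, limma). The ratio was 0.681 (0.509 to 0.898) in C57Bl/6EiJ and 0.395 (0.322 to 0.489) and 0.462 (0.363 to 0.589) in Balb/cJ cells. The median of all tested models was itself -0.15.

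Socs4 and Socs5, both linked to EGF receptor turnover, gave fitted differences of -0.18 ± 0.25 (interval -0.77 to 0.41) and -0.04 ± 0.28 (interval -0.70 to 0.62). Socs7 gave 0.10 ± 0.30 (interval -0.61 to 0.81), but its libraries differed in direction between strains. It measured 5.35 and 3.73 RPKM in C57Bl/6EiJ cells under vehicle and KLA, a ratio of 0.698 (0.546 to 0.882). In Balb/cJ cells it measured 1.95 RPKM under vehicle and 3.59 and 2.76 RPKM under KLA, with ratios of 1.84 (1.29 to 2.73) and 1.41 (0.952 to 2.15). The strain term for the KLA response was 0.92 ± 0.47 (adjusted p = 0.701 by limma), so a difference between strains was not established.

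**Figure D3:**
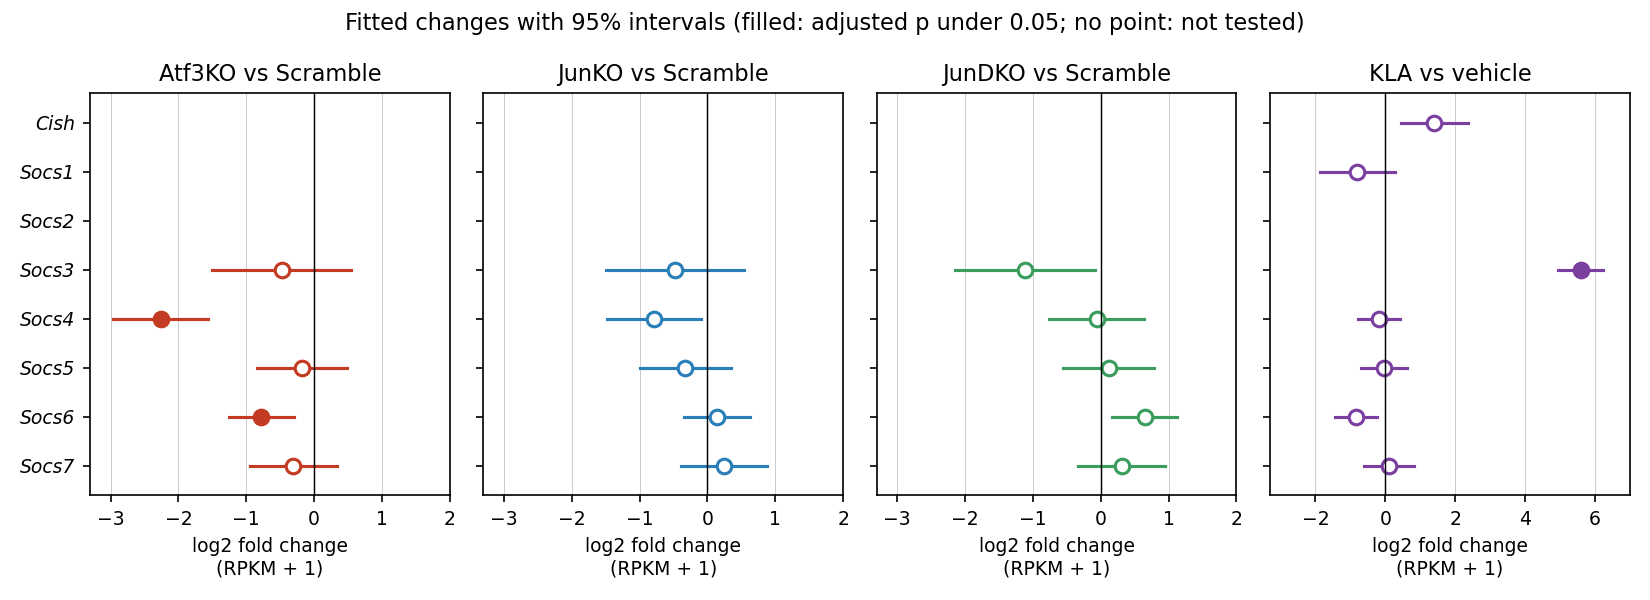
Fitted log2 fold change on log2(RPKM + 1), with its 95% interval, for each tested SOCS gene (rows) in 4 comparisons (panels, the KLA panel on a wider axis). Filled points passed at an adjusted p under 0.05, and these are Socs4 (-2.26) and Socs6 (-0.78) in Atf3KO and Socs3 (5.59) under KLA.

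The listed pathway genes that rose under KLA were cytokine ligands and STAT target genes. Of the 105 other genes listed for the pathway, 79 were tested and 7 rose, 0 falling (8.86% against the background of 1.53%; these lists were assembled with earlier results of these data known). Of 12 tested cytokine ligands, 3 rose. Il6, Il12b, Il23a, Il27, Lif, Ifnb1, Csf2 and Csf3 had vehicle means under 1 RPKM and passed the filter on low values only through the KLA libraries, so neither the number of ligands that rose nor the 7 of 79 supports anything about the lists. Il23a, a subunit of interleukin-23, had a mean of 44.7 RPKM under KLA and 0.709 under vehicle and so had to differ. Ifnb1 (interferon beta) was read 276 times under KLA and was listed at 0 in both vehicle libraries, and it too had to differ. Clcf1, a gp130-family cytokine, had 12.2 against 1.29 RPKM (log2 difference 2.50 ± 0.40, adjusted p = 0.0310 by limma). Il6, a main inducer of Socs3, had means of 2.40 under KLA and 0.376 RPKM under vehicle (1.01 ± 0.44, adjusted p = 0.340).

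Of 9 tested STAT target genes, 4 rose. Irf1, an interferon-response transcription factor, went from a mean of 17.9 to 255 RPKM (3.74 ± 0.26, adjusted p = 7.75e-04). Pim1, a survival kinase, went from 49.3 to 292 RPKM (2.66 ± 0.26, adjusted p = 0.00297). Myc went from 6.29 to 37.2 RPKM (2.48 ± 0.26, adjusted p = 0.00407), and Bcl3 also passed (1.42 ± 0.25, adjusted p = 0.0428). Irf1 and Pim1 passed in 14 of 15 alternative settings, Myc in 11, and Clcf1 and Bcl3 in 5. Without the Balb/cJ vehicle library none of these 5 genes passed, whereas Socs3 did.

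No gene passed under KLA, against a background of 1.53%, among 19 tested receptors, 4 JAKs, 6 STATs, 11 other JAK-STAT inhibitors, 6 SOCS box ligase partners and 12 other SOCS box proteins, a count near that background and not a result about these lists. Il10ra, the interleukin-10 receptor chain, had the largest difference among the receptors (66.3 against 20.8 RPKM, adjusted p = 0.0589, singled out after its values were seen). Median log2 differences were 0.87 for the STAT targets, between -0.44 (ligase partners) and 0.12 (JAKs) for the 6 lists without a passing gene, and -0.15 for all models. Of the 8 SOCS genes and 11 other inhibitors, Socs3 was the only one to pass, Usp18 (0.94 ± 0.35, adjusted p = 0.290) being the next in size after Cish among those tested.

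**Figure D4:**
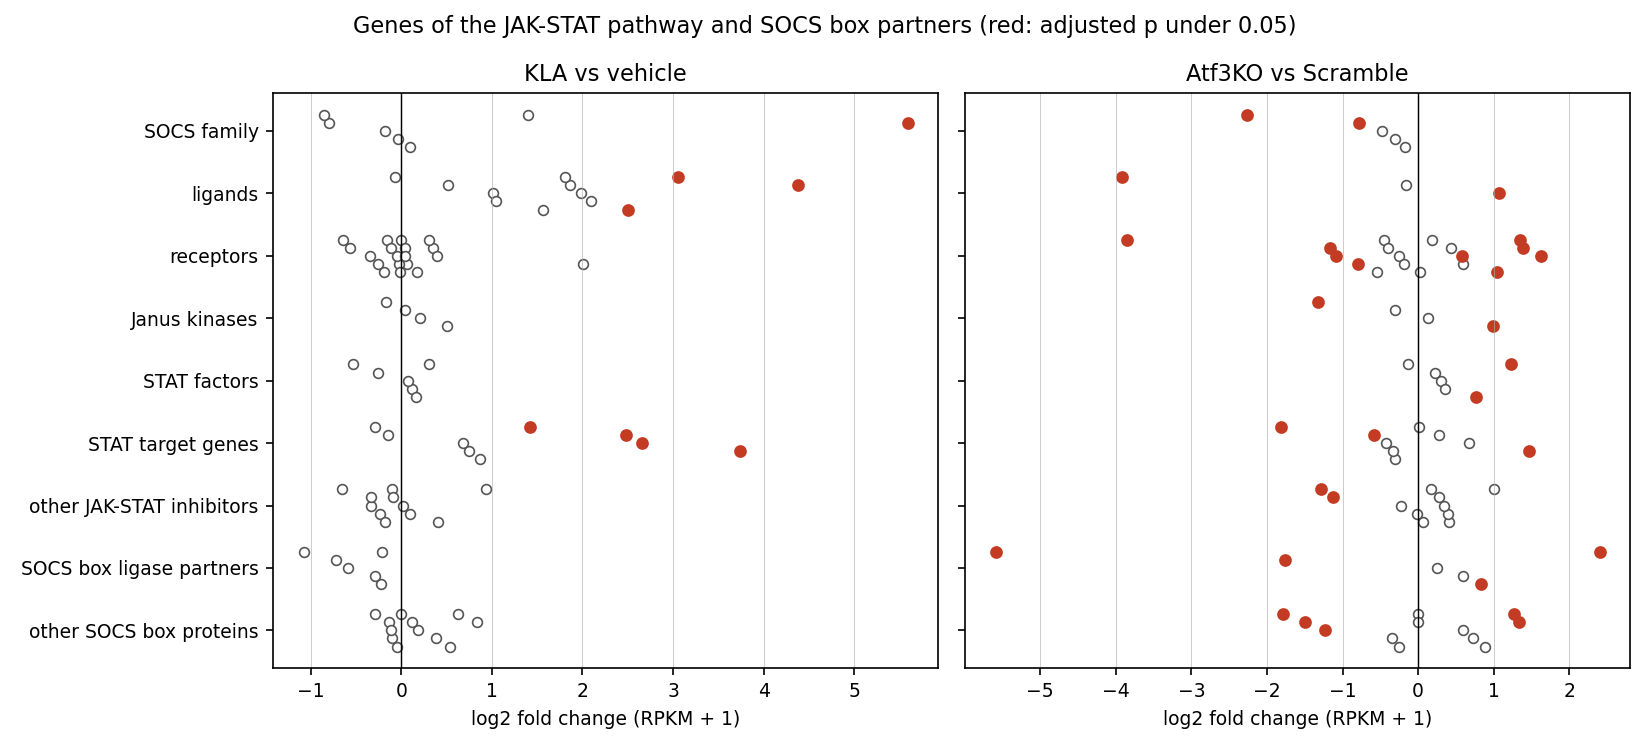
Fitted log2 fold change (x axis, log2(RPKM + 1)) of each tested gene of the SOCS family and of 8 lists of pathway genes (rows), under KLA (left) and in Atf3KO (right). Red points passed at an adjusted p under 0.05: 7 listed genes, all higher, under KLA, and 29 listed genes, 14 higher and 15 lower, in Atf3KO.

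In the iBMDMs, 5 of the 8 members could be tested (Socs3, Socs4, Socs5, Socs6 and Socs7), while Cish, Socs1 and Socs2 fell below a mean of 1 RPKM. All 8 iBMDM libraries entered 1 limma-trend fit with 4 residual degrees of freedom. In the libraries labelled Atf3KO, Socs4 and Socs6 fell against Scramble, where 41.2% of the 10691 models tested passed in either direction and 20.6% passed as lower. Neither met the study's criteria, which 12.5% of models did, since both lay below 16 RPKM, as did all 5 tested members in every iBMDM library.

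Socs4 measured 8.44 and 11.7 RPKM in Scramble and 1.27 and 1.28 RPKM in the libraries labelled Atf3KO. The groups did not overlap, as for 70.8% of models tested, and the other 6 iBMDM libraries ranged from 3.82 to 11.7 RPKM. The fitted change was -2.26 ± 0.30 (log2, 4.80-fold lower on the log2(RPKM + 1) scale, adjusted p = 0.00151 by limma), rank 518 of 10691 by size. The Atf3KO mean rested on 32 reads (pooled level 1.28 RPKM, exact Poisson interval 0.875 to 1.81). Against JunKO the change was -1.48 ± 0.30 (adjusted p = 0.00876, background 35.5%), and JunDKO lay above Atf3KO by 2.20 ± 0.30 (adjusted p = 0.00125, background 40.7%), or by 1.08 after a GC correction (adjusted p = 0.00735). The JunKO comparison lost its call without JunKO replicate 2 (-1.08, adjusted p = 0.0599) and after a GC correction (-0.56, adjusted p = 0.0911).

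Base composition moved with these differences. Across tested models, the Atf3KO change rose with the GC content of the transcript (Spearman rho 0.49 across 10691 genes, which are not independent). The Socs4 transcript is 38.5% GC, with only 3.7% of models lower. The 281 tested models within 1 percentage point of its GC content had a median change of -0.90, 46.3% of them passed as lower, and 9.61% fell further than Socs4. A correction for GC content left Socs4 at -1.30 and past the threshold (adjusted p = 0.00377 by limma). Replicate 2 of Atf3KO also carried another date than all other iBMDM libraries. Without it the Socs4 change was -2.27, with 1 Atf3KO library left and the spread taken from the other groups. The parts of GC content and date in the change were not tested further.

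Socs6 measured 5.82 and 6.38 RPKM in Scramble and 3.19 and 3.06 RPKM in the libraries labelled Atf3KO, the lowest 2 of the 8 iBMDM libraries. The fitted change was -0.78 ± 0.21 (adjusted p = 0.0192 by limma). The call was lost without Scramble replicate 1 (adjusted p = 0.0562), without Scramble replicate 2 (0.100), without Atf3KO replicate 2 (0.0554), with only the 4 libraries compared (0.0665) and after GC correction (-0.41, 0.101). Among 1062 models of like GC content (45.3% for Socs6), the median change was -0.38 and 33.1% passed as lower. Among the iBMDM groups, Socs6 was highest in JunDKO (10.4 and 9.86 RPKM). JunDKO lay above Atf3KO by 1.43 ± 0.21 (adjusted p = 0.00160 by limma), or by 0.92 after GC correction. This difference passed in all 15 alternative settings. Against JunKO, Atf3KO lay lower by -0.92 ± 0.21 (adjusted p = 0.0128; -0.54 after GC correction), a call lost without JunKO replicate 2 (-0.77, 0.0855) and with only the 4 libraries compared (0.0619).

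The other 3 tested members did not pass in Atf3KO. Socs3 measured 1.91 and 4.30 RPKM in Scramble and 1.17 and 2.64 RPKM in Atf3KO, overlapping, with a fitted difference of -0.48 ± 0.44 (interval -1.50 to 0.54). Socs5 measured 7.20 and 7.58 against 8.75 and 4.66 RPKM, with the widest spread of any iBMDM group for this gene, and a difference of -0.18 ± 0.29. Socs7 measured 2.59 and 3.00 against 1.88 and 2.25 RPKM, not overlapping, as for 70.8% of models tested, with a difference of -0.31 ± 0.28 (adjusted p = 0.391). The family sum was 26.8 and 33.2 RPKM in Scramble and 16.3 and 14.2 RPKM in Atf3KO, the lowest 2 of the 13 libraries.

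No member passed in JunKO against Scramble, where 30 models passed (0.281%) and 842 (7.88%) had an unadjusted p under 0.05. Socs4 measured 3.82 and 7.33 RPKM, below both Scramble libraries (difference -0.79 ± 0.30, adjusted p = 0.543, unadjusted p = 0.0310 in the limma fit). Socs3 measured 2.80 and 1.07 RPKM (-0.48 ± 0.44), Socs6 6.04 and 7.65 RPKM (0.14 ± 0.21) and Socs7 2.68 and 4.50 RPKM (0.25 ± 0.28), all overlapping Scramble. Socs5 measured 5.74 and 5.58 RPKM (-0.33 ± 0.29), also below Scramble, and groups did not overlap for 37.2% of models. Of the 5 members, Socs4 alone had an unadjusted p under 0.05.

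No member passed in JunDKO against Scramble either, where 1256 models (11.7%) passed and the median of all models was 0.23. Socs3 measured 0.71 and 0.917 RPKM, the lowest levels of the gene in the 13 libraries and below both Scramble libraries. Its difference was -1.12 ± 0.44 (interval -2.14 to -0.09, adjusted p = 0.148, unadjusted p = 0.0357, limma). It rested on 10 and 20 reads in Scramble and 3 and 46 reads in JunDKO. Socs6 was above Scramble by 0.65 ± 0.21 (interval 0.17 to 1.13, adjusted p = 0.0854, unadjusted p = 0.0139). Groups that did not overlap made up 61.6% of all models in this comparison. Socs4 (-0.06 ± 0.30), Socs5 (0.12 ± 0.29) and Socs7 (0.31 ± 0.28) lay nearer to 0. No member passed between JunDKO and JunKO (870 models, 8.14%), where Socs4 differed by 0.73 ± 0.30 (adjusted p = 0.184).

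In the libraries labelled Atf3KO, 14 of 69 listed pathway genes tested were higher and 15 lower, a share (42.0%) near the background of 41.2%, so the count is not a result about the pathway. Eloc, which encodes elongin C, the subunit that the SOCS box contacts, was listed at 43.7 and 73.9 RPKM in Scramble and 0 and 0.437 RPKM in Atf3KO, 3 reads against 200, a Scramble to Atf3KO ratio of 213 (interval 71.8 to 1040). Elob (elongin B), its partner, measured 21.7 and 15.1 against 70.7 and 142 RPKM (2.40 ± 0.35, adjusted p = 0.00200). Cul2, a cullin scaffold, fell from a mean of 22.6 to 6.03 RPKM (-1.76 ± 0.25, adjusted p = 0.00194) and Rnf7, a RING partner of cullin 5, was higher (0.83, adjusted p = 0.0367) but passed in only 6 of 15 alternative settings. Eloc, Elob and Cul2 passed in all 15. Cul5, the cullin that RNF7 partners, did not pass (10.1 against 8.31 RPKM, 0.25 ± 0.21, adjusted p = 0.354 by limma), nor did Rbx1 (0.59 ± 0.24, adjusted p = 0.0748). Of the 6 ligase partners, 2 were thus higher and 2 lower.

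Among ligands and receptors, Il15 was listed at 14.7 and 16.2 RPKM in Scramble and at 0.18 and 0 RPKM in Atf3KO, 71 reads against 1. Il7r, the interleukin-7 receptor, was listed at 0 in both Atf3KO libraries and at 11.0 and 16.3 RPKM in Scramble. Csf3r, the G-CSF receptor that SOCS3 restrains, rose (1.63 ± 0.27, adjusted p = 0.00326). These 3 genes passed in all 15 alternative settings. Il15ra (1.39) and Csf2ra (1.35) rose in the fit but passed in only 6 of 14 and 7 of 15. In all, 5 receptors were higher and 4 lower of 18, and 1 ligand (Ebi3) was higher and 1 lower of 3. These counts include Il2rg, which passed in 6 of 15 alternative settings, Lifr (8 of 14) and Il13ra1 (10 of 14), and Ebi3 and Il4ra lost their calls without Scramble replicate 2 or Atf3KO replicate 2.

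Of the 4 JAKs, Jak2 fell (-1.32 ± 0.26, adjusted p = 0.00650) and Tyk2 rose (0.99 ± 0.21, adjusted p = 0.00797, lost after GC correction). Stat5b (1.23) and Stat2 (0.77) were higher among 6 STATs. Jak2, Stat5b and Stat2 lost their calls without Scramble replicate 2 and in no other of 15 alternative settings. Of 9 STAT targets, Bcl3 was higher and Nfil3 (-1.81) and Irf9 (-0.58) were lower, Bcl3 in only 7 of 15 alternative settings. Among 11 other inhibitors, Pias2 (-1.28) and Ptprc (-1.12) were lower and 0 higher. Ptprc lost its call after GC correction, Pias2 passed in only 10 of 15 alternative settings and Irf9 in 11. Other SOCS box proteins split into 2 higher (Asb6 and Spsb3) and 3 lower (Asb1, Asb3 and Asb8) of 12. Of these 5 calls, Asb1 alone held in every alternative that gave a value. Asb3 was lost after GC correction and without either Scramble replicate, Spsb3 after GC correction, Asb6 without Scramble replicate 2 or Atf3KO replicate 2, and Asb8 without Scramble replicate 1.

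In JunKO, none of the 69 listed genes passed (background 0.281%), which is not a result about the lists. In JunDKO, 3 were higher and 3 lower (8.70%, background 11.7%). Csf3r was higher (13.3 against 2.92 RPKM, 1.87 ± 0.27, adjusted p = 0.00367), a call lost without JunDKO replicate 1. Il6st, which encodes gp130, the receptor chain that SOCS3 binds, was higher (26.4 against 11.6 RPKM, 1.14 ± 0.24, adjusted p = 0.0203) in 11 of 15 alternative settings. Asb10, another SOCS box gene, was read 147 times in JunDKO and listed at 0 in Scramble. It is 1 of the 3 higher genes, and it passed the filter on low values only through the JunDKO libraries, so it had to differ. Usp18, an inhibitor of the interferon receptor, fell from 69.7 to 21.8 RPKM (-1.63 ± 0.19, adjusted p = 0.00120) in all 15 alternative settings. Il2rg (-0.89) and Il15 (-0.85) were lower in 11 and 5 of the 15.

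For the 3 members with a mean of at least 5 RPKM, the genes whose levels ran most alike over the 8 iBMDM libraries were taken from 7988 models averaging 5 RPKM or more, using Pearson's r of log2(RPKM + 1). For Socs4 they were Faim (r = 0.992), Zfp451 (0.989) and Secisbp2l (0.986), for Socs6 Cep350 (0.995), Scp2 (0.992) and Zzz3 (0.989), and for Socs5 Tnpo3 (0.959), Cog5 (0.947) and Sptlc2 (0.936). Such values were common: 551 models reached 0.9 with Socs4 and 537 with Socs6, but 8 with Socs5. All 6 like genes of Socs4 and Socs6 were lowest in the 2 Atf3KO libraries, which these correlations share, so they describe that shared contrast.

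Vehicle TGEMs and Scramble iBMDMs differed in preparation, donor, culture, transformation and the levels of Xist and Ddx3y, which cannot be told apart. The Balb/cJ vehicle library also differed from Scramble in strain. A single fit over all 13 libraries, with strain as a covariate, gave the differences below. They are therefore not the plain differences between the levels quoted beside them. Of 10929 models tested, 5055 passed (46.3%), with a median of -0.28. Socs5 was lower in TGEMs (2.84 and 3.79 RPKM) than in Scramble (7.20 and 7.58 RPKM), by -1.10 ± 0.32 (adjusted p = 0.0176 by limma), and it was the only one of the 5 tested members to pass. The call was lost without Scramble replicate 1 (adjusted p = 0.0516), Scramble replicate 2 (0.0699) or the C57Bl/6EiJ vehicle library (0.187), with only the 4 libraries compared (0.0646) and after GC correction (-0.61, 0.0954).

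Socs6 lay 0.62 ± 0.25 above Scramble (adjusted p = 0.0618 by limma). It passed with equal library medians (0.88, adjusted p = 0.0220), quantile normalization (0.90, 0.0171) or GC correction (1.27, 0.00178), and without the C57Bl/6EiJ vehicle library (1.07, 0.0463). Socs2, at 0.932 and 1.03 RPKM on 27 reads, was listed at 0 in Scramble. Socs1 was read 34 times in vehicle TGEMs and 2 times in Scramble, a ratio of 4.50 with an interval of 1.15 to 38.7. Cish (13 reads against 1) gave 3.44 (0.517 to 146). B cell and mesothelial or fibroblast markers were present in TGEMs and near 0 in Scramble, and their part in these differences was not tested.

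The Balb/cJ and C57Bl/6EiJ TGEMs were compared over 5 libraries with treatment as a covariate, and no member passed among 239 models (2.31%). Differences ran from -0.58 ± 0.30 for Socs7 to 0.51 ± 0.26 for Socs6 (Balb/cJ minus C57Bl/6EiJ, adjusted p = 0.315 and 0.303, limma). Socs3 differed by -0.25 ± 0.27 (interval -0.88 to 0.39). No library date was shared between the strains, so strain and date cannot be told apart.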

How the data were processed

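RNA-seq values were available for 13 of the 17 samples, and values for the 4 GRO-seq samples were not used here. The authors aligned reads with STAR to mm10 and quantified gene exons with HOMER, and the deposited values are RPKM (reads per kilobase of exon, scaled to library depth), with no versions given in the sources used here. Members were matched by gene symbol. Each library's read total was recovered from the RPKM and exonic lengths as the depth that made the values whole numbers of reads. In single-copy models, 100.00% of values of up to 50 reads were whole within 0.05 reads or the rounding error, whichever was larger. This share follows in part from how the depth was chosen. On simulated libraries the recovery gave the depth within 0.0001%. Because the files hold RPKM, tests used limma 3.58.1 (limma-trend, R 4.3.3) on log2(RPKM + 1) for the 10357 to 10929 models averaging 1 RPKM or more in the fitted libraries, with Benjamini-Hochberg adjustment over all models tested and a threshold of 0.05. On simulated data with 200 genes changed 4-fold, 192 were called in Atf3KO against Scramble (10423 genes, 5 unchanged genes called) and 199 in KLA against vehicle (10438 genes, 47 unchanged genes called). Unchanged genes called numbered 25 in JunKO, 9 in JunDKO, 40 between strains, 110 for the strain term of the KLA response and 8 between TGEMs and Scramble. For KLA, JunKO, the strains and the strain term, their share of the calls was above 0.05. Calls in those comparisons are less sure than the threshold states. Counting intervals are 95% and exact, and cover counting error only.

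The members and gene lists were chosen with earlier results of these data known. Named were the 8 members, the 3 targeted genes, up to 3 passing genes of each pathway list by size of change, and the 3 genes most like each member averaging 5 RPKM or more in iBMDMs. In lists with more passing genes, a few others were also named after their values were seen. Nothing in the labels said what a replicate number marks, and each group had only 2, so the numbers were not taken to pair libraries. Same-numbered deviations correlated at 0.18 to 0.22 among Scramble, JunKO and JunDKO and at -0.21 to -0.12 with Atf3KO (10691 models). Alternatives changed the pseudocount, filter, scaling, test (limma-voom on recovered reads), covariates and libraries. Where leaving out a library left a group with a single library, the spread came from the other groups. GC correction (transcript GC content of 99.0% of models, from the GRCm38.p6 reference) and a crossed block were chosen after the data were seen. Promoter windows came from RefSeq (GRCm38.p6), matched by symbol. Figures were drawn in Python 3.11.15.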

Additional observations from a re-analysis of the deposited data

How the results depend on the processing

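Of 749 alternative values for single members, 686 kept their direction and their side of the threshold, 14 lost and 5 gained a call, and 44 changed sign, none of these past the threshold. The Socs3 rise under KLA passed in 15 of 15 alternatives (4.81 to 5.96, adjusted p 5.45e-11 to 0.0360), as did the fall of Socs4 in Atf3KO (-2.92 to -1.25, adjusted p 4.98e-04 to 0.0189). The 1 to 3 libraries a group and few reads for Cish, Socs1 and Socs2 limit all other values. The cause of the changes below was not tested.

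The number of members passing in Atf3KO against Scramble went from 2 to 1 (Socs4) after GC correction and with only the 4 libraries compared, and ran from 1 to 2 when single libraries were left out. Against JunKO it went from 2 to 1 in the same settings (Socs6 after GC correction, Socs4 with 4 libraries) and ran from 0 to 2, the 0 without JunKO replicate 2. In JunDKO against Atf3KO it went from 2 to 3 with limma-voom, where Socs7 passed (0.86, adjusted p = 0.0146). Between vehicle TGEMs and Scramble it went from 1 to 2 with no filter (Socs2, Socs5), equal medians or quantile normalization (Socs5, Socs6), to 0 with only 4 libraries, and ran from 0 to 1 when single libraries were left out, the 0 without either Scramble replicate.

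Signs changed for small differences. After GC correction, Socs5 was 0.01 in Atf3KO and -0.06 in JunDKO against Scramble, -0.07 in JunDKO against Atf3KO and 0.10 under KLA, Socs7 was -0.11 in JunDKO against JunKO, Socs4 was 0.04 under KLA and 0.54 in TGEMs against Scramble, and Socs3 was -0.02 in the latter. Between strains it gave 0.17 for Cish, 0.21 for Socs3 and -0.32 for Socs4, and for the strain term of the KLA response -0.02 for Cish and 0.08 for Socs4. Equal medians and quantile normalization gave -0.15 and -0.14 for Socs5 in JunDKO against Scramble, -0.15 and -0.17 for Socs7 in JunDKO against JunKO, and 0.07 and 0.10 for Socs5 under KLA, which was also 0.10 with date in place of strain. On recovered reads (limma-voom), Socs4 was 0.01 in JunDKO against Scramble and Cish 0.01 between strains. With strain as the only factor, Cish was 0.06, Socs3 0.69 and Socs4 -0.01.

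When single libraries were left out, Socs5 ran from -0.57 to 0.22 in Atf3KO and from -0.09 to 0.33 in JunDKO against Scramble, from -0.10 to 0.69 in JunDKO against Atf3KO, from -0.24 to 0.55 in Atf3KO against JunKO and from -0.17 to 0.10 under KLA. Socs7 ran from -0.04 to 0.54 in JunKO against Scramble, from -0.23 to 0.35 in JunDKO against JunKO, from -0.42 to 0.49 under KLA and from -0.17 to 0.74 in TGEMs against Scramble. Socs6 ran from -0.01 to 0.29 in JunKO and Socs4 from -0.27 to 0.15 in JunDKO against Scramble. Between strains Cish ran from -0.46 to 0.08, Socs1 from -0.06 to 0.64 and Socs4 from -0.07 to 0.14.

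Same-numbered libraries of Scramble, JunKO and JunDKO deviated together (0.18 to 0.22) and those of Atf3KO did not (-0.21 to -0.12), a hint from the data and not from the design, and whether the numbers mark a pairing was not settled. With the replicate block, models passing numbered 4113 in Atf3KO, 14 in JunKO and 1041 in JunDKO against Scramble (4409, 30 and 1256 without it), and 2, 0 and 0 members passed, as without the block. With Atf3KO numbers crossed, a pairing chosen after seeing the data, the models passing were 5489, 58 and 2040.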
